A study of Mus musculus with 12 samples.

Results

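The 9 genes described here, Mecom, Hlf, Meis1, Gata2, Gfi1b, Erg, Tal1, Lyl1 and Prdm16, encode transcription factors of haematopoietic stem cells. They were taken as a list by gene symbol from the 46103 genes measured by RNA sequencing. The rule used symbols and no values, but the list was drawn up with earlier results of these data known. The 12 libraries came from a mouse model of chronic myeloid leukaemia (CML), each made from 100 sorted cells of bone marrow and spleen, with 3 libraries in each of 4 groups. The cells were BCR-ABL1+ CD27+ KSL cells (Kit+, Sca-1+, lineage negative, also written LSK) on the C57BL/6 background. DP and SP cells were taken from vehicle-treated mice and were G0M+ and G0M-, respectively. IMDP and IMSP cells were the G0M+ and G0M- cells of mice given imatinib, an inhibitor of the ABL kinase, by oral gavage once a day. G0M is a fluorescent reporter, mVenus fused to a p27 mutant without Cdk inhibitory activity, which accumulates in quiescent cells, and here it was expressed from Rosa26 after recombination by Vav1-Cre in blood cells. In all 4 groups the leukaemic cells derived from marrow of 5-fluorouracil-treated donors that was transduced with a retrovirus carrying human BCR-ABL1 and GFP and was transplanted with carrier marrow into lethally irradiated wild-type recipients. The labels give no ages of the mice, while the study's reporting summary states female sex and an age range in weeks for all experiments. The labels do not say whether the libraries of a group came from separate mice, so p-values measure the spread between these libraries, which may be technical.

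These factors form a network in blood stem cells. Gata2 (zinc finger), Tal1 and Lyl1 (basic helix-loop-helix), Erg (ETS) and Gfi1b (a zinc finger repressor) are known to bind shared enhancers, together with Runx1, Fli1 and Lmo2. Meis1 is a homeodomain cofactor of Hox and Pbx proteins, and Mecom and Prdm16 are related PR-domain zinc finger proteins. Hlf, a basic leucine zipper factor of the PAR family, marks the most primitive stem cells. Most of the 9 are needed to keep adult stem cells, and Mecom, Hlf, Erg, Tal1 and Lyl1 were found at leukaemia breakpoints or insertions.

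The deposited values were RPKM (reads per kilobase of transcript, scaled to the reads of the library), with 11367631 to 20573779 reads behind each library as recovered from the values. Replicates of a group correlated at 0.889 to 0.954 over log2 values. The G0M label could be checked with cell cycle genes: Mki67, a marker of cycling cells, lay between 7.18 and 21.2 RPKM in the G0M+ libraries and between 50.8 and 70.6 RPKM in the G0M- libraries, and all 12 cell cycle genes of the list were lower in the G0M+ cells (limma, adjusted p from 6.1e-06 to 0.00018). Kit (16.8 to 39.8 RPKM), Ly6a, which encodes Sca-1 (3.12 to 20.8 RPKM), and Cd27 (12.2 to 21.4 RPKM) were present in every library. The median gene lay lower in G0M+ than in G0M- cells by -0.13 on the log2 scale, and by -0.25 between IMDP and IMSP cells. Changes relative to that shift are given below where it matters.

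The genes lie on 7 mouse chromosomes (GRCm38, GENCODE M21). On the - strand are Mecom (chr3:29951296-30548008), Hlf (chr11:90336536-90390895), Meis1 (chr11:18879817-19018985), Gfi1b (chr2:28609450-28621982), Erg (chr16:95359169-95586593) and Prdm16 (chr4:154316125-154636873). On the + strand are Gata2 (chr6:88193891-88207032), Tal1 (chr4:115056426-115071755) and Lyl1 (chr8:84701457-84704715). Exons of Mecom and of Prdm16 share up to 81 and 109 bases with a gene on the other strand.

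All 9 genes passed the filter of at least 1 RPKM in at least 3 libraries, and each rested on reads in every library. As RPKM is per length, their levels can be ranked. Over the 12 libraries Lyl1 had the highest mean, 16.0 RPKM, followed by Gata2 (13.8), Meis1 (10.3), Erg (9.54), Tal1 (6.53), Hlf (5.34), Mecom (4.56) and Gfi1b (3.82). Prdm16 was far lower at a mean of 0.745 RPKM, reached 1 RPKM in 3 libraries only, and rested on 8 to 373 reads. The spread also differed between genes: Lyl1 varied 2.24-fold between its lowest and highest library, Erg 2.89-fold and Tal1 2.95-fold, whereas Mecom varied 7.62-fold, Gfi1b 9.22-fold, Hlf 10.9-fold and Prdm16 53.2-fold.

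**Figure D1:**
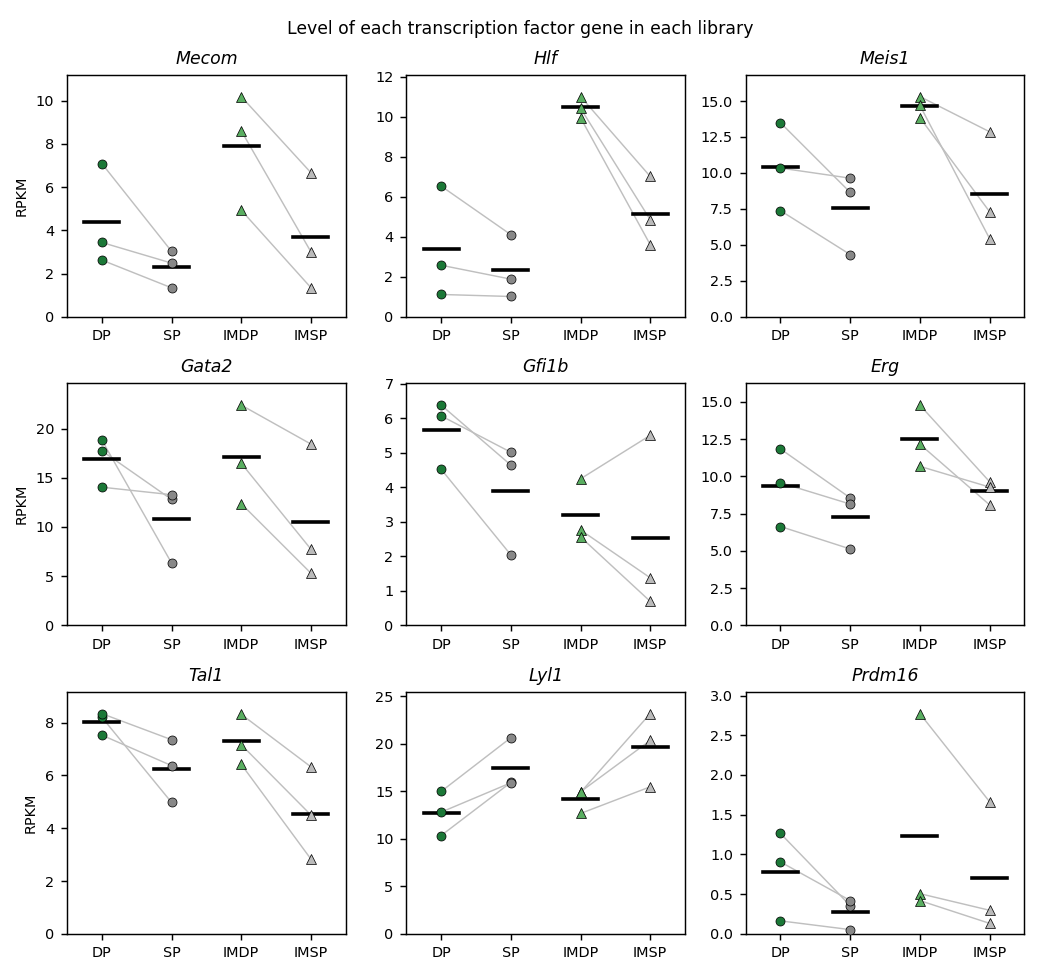
RPKM of the 9 genes in each of the 12 libraries, by group, on linear axes that start at 0. Points are libraries, black bars are means of 3 libraries, and grey lines join G0M+ and G0M- libraries with neighbouring library numbers. The G0M+ member of a joined pair is the higher one for most genes and the lower one for Lyl1.

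The question behind the G0M sort is how quiescent leukaemic KSL cells differ from cycling ones. Across both treatments, 8 of the 9 genes had a higher mean in G0M+ cells and Lyl1 a lower one. Tal1 was higher, 1.47-fold (log2 fold change 0.55 ± 0.17 SE, limma, adjusted p = 0.036), and Lyl1 was lower, by -0.46 ± 0.13 SE (limma, adjusted p = 0.026). The other 7 genes did not pass the threshold of 0.05, although Mecom (log2 fold change 1.08 ± 0.38 SE, limma, adjusted p = 0.052), Meis1 (0.68, adjusted p = 0.057) and Gata2 (0.78, adjusted p = 0.065) lay near it. Of all 10072 genes tested, 26.3% passed, 5.32% higher and 21.0% lower, so 2 of 9 called is close to the background. The median log2 fold change of the 9 genes was 0.69, against -0.13 over all genes tested. A lower level per library can mean fewer cells that express a gene or less RNA per cell, which cannot be told apart in bulk samples.

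The 12 libraries formed 6 pairs of a G0M+ and a G0M- library with neighbouring library numbers, and the members of each pair deviated together from their group means (correlations of 0.43 to 0.65 over all tested genes). For the imatinib groups these pairs are also the equal replicate numbers. Within them, Mecom, Hlf, Meis1, Gata2, Erg, Tal1 and Prdm16 exceeded the G0M- neighbour in each of the 6 pairs, which is 7 of 9 genes against 11.3% of all tested genes. In each of the 6 pairs Lyl1 lay below its G0M- neighbour, as did 24.9% of all tested genes. Gfi1b was higher in 5 of 6 pairs. With the pair as a block in the fit, all 9 genes passed the threshold, 8 higher and Lyl1 lower, from an adjusted p of 0.00088 for Mecom to 0.037 for Gfi1b (limma). This fit called 13.4% of all tested genes higher and 33.4% lower. The labels give the library numbers but do not say that neighbours were sorted or prepared together. The pairing was adopted because of these correlations in the same data, so the blocked p-values are not independent of that choice.

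**Figure D2:**
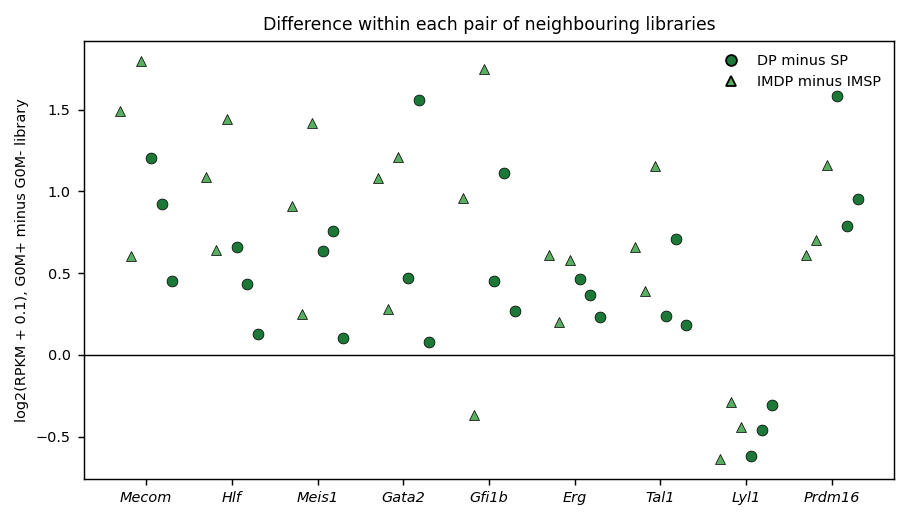
Difference in log2(RPKM + 0.1) between the G0M+ and the G0M- library of each of the 6 pairs of neighbouring libraries, for each gene. Circles are DP minus SP and triangles are IMDP minus IMSP. All points lie above 0 for 7 genes, 5 of 6 for Gfi1b, and all below 0 for Lyl1.

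Between the vehicle groups alone, DP and SP cells, none of the 9 genes passed (limma), while 2.26% of all tested genes did and 1328 genes had an unadjusted p under 0.05. The log2 fold changes ran from -0.46 for Lyl1 to 1.11 for Prdm16, with 8 of 9 above 0. The 3 libraries of DP and of SP cells did not overlap for Gata2, Tal1 and Lyl1, 3 of 9 genes against 22.4% of all tested genes. With the pair as a block, Mecom was higher (adjusted p = 0.046, limma) and Lyl1 lower (adjusted p = 0.035, limma), in a fit that called 4.17% of genes higher and 5.56% lower. limma-voom on the recovered reads, without the block, called 0 of the 9 genes and 263 of all tested genes.

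Between the imatinib groups, IMDP and IMSP cells, Tal1 was higher 1.66-fold (log2 fold change 0.73 ± 0.25 SE, limma, adjusted p = 0.047), where 25.6% of all tested genes passed, 2.37% higher and 23.3% lower. That call was lost without any 1 of the libraries other than IMSP replicate 2 and SP replicate 2, with adjusted p between 0.052 and 0.15. The groups did not overlap for Hlf, Meis1, Erg, Tal1 and Lyl1, 5 of 9 genes against 39.0% of all tested genes. With the pair as a block, 7 genes passed: Mecom, Hlf, Meis1, Gata2, Erg and Tal1 higher and Lyl1 lower (limma, adjusted p from 0.0015 for Hlf to 0.026 for Gata2), whereas Gfi1b (adjusted p = 0.085) and Prdm16 (adjusted p = 0.10) did not. This fit called 8.22% of genes higher and 35.9% lower. A difference of the G0M effect between imatinib and vehicle was not detected for any of the 9 genes (limma interaction, adjusted p of 0.73 or more), in a test that called 0% of genes, with 937 genes at an unadjusted p under 0.05 and 0 by limma-voom.

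**Figure D3:**
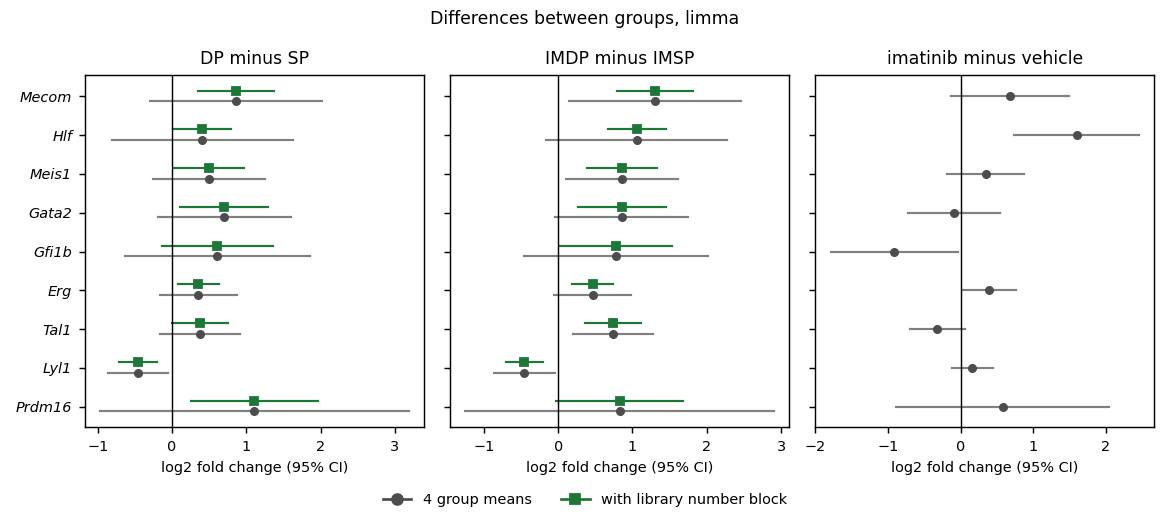
log2 fold changes of the 9 genes with 95% confidence intervals from limma, for DP minus SP, IMDP minus IMSP and imatinib minus vehicle. Grey circles are the fit with 4 group means and green squares the fit with the library pair as a block, which leaves the estimate as it is. Block intervals are narrower, and those of Lyl1 lie below 0 in both sorts.

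Mecom, a zinc finger factor needed for stem cell quiescence, varied widely within groups. In replicate order it measured 2.62, 3.44 and 7.09 RPKM in DP cells and 3.03, 1.34 and 2.48 RPKM in SP cells. In imatinib-treated mice it measured 8.61, 10.2 and 4.93 RPKM in IMDP cells and 3.01, 6.67 and 1.35 RPKM in IMSP cells. The groups of both sorts overlapped, yet each G0M+ library stood 1.38- to 3.66-fold above its G0M- neighbour. The average was 2.11-fold higher in G0M+ cells (95% confidence interval of the log2 fold change 0.26 to 1.90).

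Prdm16, a relative of Mecom with a role in stem cell maintenance, measured 0.162, 0.904 and 1.26 RPKM in DP cells and 0.355, 0.0522 and 0.419 RPKM in SP cells. It measured 0.505, 2.77 and 0.418 RPKM in IMDP cells and 0.296, 1.66 and 0.131 RPKM in IMSP cells. One pair, IMDP replicate 2 and IMSP replicate 2, stood above all other libraries. Prdm16 stood 1.67- to 3.56-fold above the G0M- neighbour in each of the 6 pairs, although the average log2 fold change of 0.97 had an interval of -0.50 to 2.43 without the block (limma, adjusted p = 0.30).

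Hlf, the PAR family factor of primitive stem cells, measured 2.57, 1.11 and 6.53 RPKM in DP cells and 4.10, 1.88 and 1.01 RPKM in SP cells. After imatinib it measured 10.4, 11.0 and 9.95 RPKM in IMDP cells and 4.85, 7.01 and 3.60 RPKM in IMSP cells. The IMDP libraries lay close together and above those of every other group, with a mean of 10.5 ± 0.529 RPKM (SD, n = 3). Between DP and SP cells the log2 fold change of 0.41 was smaller than the spread (95% confidence interval -0.81 to 1.62), and it turned to -0.22 without DP replicate 3 and to -0.05 without SP replicate 3.

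Meis1, the homeodomain factor, measured 7.38, 10.3 and 13.5 RPKM in DP cells and 8.65, 4.32 and 9.63 RPKM in SP cells. It measured 13.8, 15.3 and 14.7 RPKM in IMDP cells and 7.31, 12.9 and 5.44 RPKM in IMSP cells. IMDP cells were above DP and above IMSP cells without overlap, and SP and IMSP cells overlapped. The G0M+ library was higher by 1.07- to 2.70-fold within the pairs. Exons of Meis1 share up to 896 bases with an antisense gene and up to 1029 bases with an unconfirmed gene on its own strand in GENCODE M21, and the reads of these overlaps cannot be told apart where counting ignores strand, as no source states that it was used.

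Gata2, which controls stem cell survival and is also high in mast cells, measured 18.8, 14.0 and 17.8 RPKM in DP cells and 12.8, 6.33 and 13.3 RPKM in SP cells. It measured 16.5, 22.4 and 12.4 RPKM in IMDP cells and 7.74, 18.4 and 5.30 RPKM in IMSP cells. All DP libraries stood above all SP libraries, but IMSP replicate 2 was as high as most G0M+ libraries. Without that library Gata2 passed in the average of the sorts, and so did Mecom, Meis1 and Gfi1b beside Tal1 and Lyl1, 6 of 9 genes in place of 2 (limma), in a fit that called 2924 of all 10072 genes in place of 2648.

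Gfi1b, a repressor that limits stem cell expansion and is required for erythroid and megakaryocyte development, measured 4.52, 6.07 and 6.38 RPKM in DP cells and 4.64, 2.04 and 5.01 RPKM in SP cells. Its levels were 2.76, 4.24 and 2.56 RPKM in IMDP cells and 1.37, 5.50 and 0.692 RPKM in IMSP cells, the last of these resting on 17 reads. The pair of IMDP replicate 2 and IMSP replicate 2 was the only 1 of 6 in which the G0M- library was higher, 1.30-fold.

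Erg, the ETS factor, measured 6.63, 9.57 and 11.8 RPKM in DP cells and 8.55, 5.12 and 8.14 RPKM in SP cells. It measured 14.8, 10.7 and 12.2 RPKM in IMDP cells and 9.64, 9.28 and 8.09 RPKM in IMSP cells. The groups of each sort differed by a small and even step, 1.15- to 1.53-fold in the 6 pairs, with overlap between DP and SP cells and none between IMDP and IMSP cells.

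Tal1 and Lyl1 are close relatives in protein family and moved in opposite directions. Tal1 measured 8.21, 8.35 and 7.53 RPKM in DP cells and 6.37, 4.98 and 7.36 RPKM in SP cells, and 7.17, 8.32 and 6.42 RPKM in IMDP cells and 4.50, 6.33 and 2.83 RPKM in IMSP cells. Within each treatment the G0M+ libraries all stood above the G0M- libraries. The exact permutation test of the 6 G0M+ against the 6 G0M- libraries gave a two-sided p of 0.011, not adjusted for the number of genes. Leaving out single libraries ended the limma call for DP replicates 1, 2 and 3 (adjusted p = 0.053, 0.073 and 0.065), IMDP replicate 2 (0.082), IMSP replicates 1 and 3 (0.069 and 0.051) and SP replicates 1 and 2 (0.061 and 0.087).

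Lyl1 measured 15, 12.8 and 10.3 RPKM in DP cells and 15.9, 20.6 and 15.9 RPKM in SP cells. It measured 14.9, 12.7 and 14.9 RPKM in IMDP cells and 23.2, 15.5 and 20.4 RPKM in IMSP cells. All 6 G0M- libraries stood above all 6 G0M+ libraries, which was so for 7.00% of all tested genes, and the two-sided exact permutation p was 0.0022, the smallest that 6 against 6 can give. Relative to the median gene the log2 fold change was -0.32 rather than -0.46, and after scaling every library to the same median the call was lost without the block (limma, adjusted p = 0.10) and held with it (limma, adjusted p = 0.015). Between IMDP and IMSP cells alone, median scaling left -0.18 (limma with block, adjusted p = 0.23). Single libraries also ended the unscaled call: DP replicate 2 (adjusted p = 0.052), DP replicate 3 (0.068), IMDP replicate 2 (0.059), IMSP replicate 1 (0.070) and SP replicate 2 (0.065).

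The ratio of Tal1 to Lyl1 within a library, which no scaling of libraries can move, was 0.548, 0.652 and 0.728 in DP cells and 0.400, 0.241 and 0.463 in SP cells. It was 0.482, 0.657 and 0.430 in IMDP cells and 0.194, 0.409 and 0.139 in IMSP cells. The ratio was chosen after the values had been seen and was not tested. In each of the 6 pairs the G0M+ library had the higher ratio, and the groups did not overlap within either treatment.

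Because these 2 genes moved apart and Hlf differed most with treatment, the sequence just before their outermost RefSeq start is shown (RefSeq, GRCm38.p6, up to 250 bases, written 5′ to 3′ on the gene's strand). Capitals mark matches on either strand to the GATA-type motif AGATAA or the ETS-type motifs CCGGAA and CAGGAA. The Tal1 stretch is chr4:115056176-115056425 (+ strand), that of Lyl1 chr8:84701207-84701422 (+ strand, 216 bases, cut where the RefSeq gene begins, so that the 34 bases before a start further in are not shown) and that of Hlf chr11:90390918-90391167 (- strand).
Tal1: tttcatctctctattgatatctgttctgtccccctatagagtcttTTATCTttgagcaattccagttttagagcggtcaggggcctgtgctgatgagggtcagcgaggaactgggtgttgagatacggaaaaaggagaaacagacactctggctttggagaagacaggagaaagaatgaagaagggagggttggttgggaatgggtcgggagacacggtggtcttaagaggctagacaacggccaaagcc
Lyl1: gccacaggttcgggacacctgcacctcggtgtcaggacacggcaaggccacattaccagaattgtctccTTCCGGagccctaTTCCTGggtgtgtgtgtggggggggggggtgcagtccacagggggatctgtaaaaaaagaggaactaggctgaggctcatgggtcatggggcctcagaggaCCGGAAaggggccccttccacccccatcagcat
Hlf: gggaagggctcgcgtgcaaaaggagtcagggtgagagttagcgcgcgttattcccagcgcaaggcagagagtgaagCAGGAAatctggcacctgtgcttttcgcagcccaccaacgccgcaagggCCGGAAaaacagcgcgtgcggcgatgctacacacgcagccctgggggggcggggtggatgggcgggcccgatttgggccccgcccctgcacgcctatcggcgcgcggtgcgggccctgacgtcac
The Lyl1 stretch lies within the span of the gene Nfix on the other strand, and the exons of both overlap by at most 4 bases. Tal1 held 1 GATA-type match, Lyl1 held 3 ETS-type matches and Hlf held 2. In the 250 bases before 14 start sites of the 9 genes, the GATA-type motif was found for Tal1 and Erg, 2 of 9 genes, against 9.99% of 32851 promoters. An ETS-type motif was found for Hlf, Meis1, Erg and Lyl1, 4 of 9 genes, against 35.1% of promoters. The E-box CANNTG was found for 6 of 9 genes, against 66.2% of promoters. Genes with several start sites had several windows, so their share is not directly comparable with the share per promoter, and a match is a description of letters only.

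For imatinib against vehicle, the comparison behind the question of which cells persist under treatment, none of the 9 genes passed the threshold (limma), where 0.854% of all tested genes did. Unadjusted, 1811 of all tested genes had a p under 0.05. Hlf was nearest, with a mean of 10.5 RPKM in IMDP against 3.40 ± 2.80 RPKM (SD, n = 3) in DP cells and of 5.15 ± 1.73 RPKM (SD, n = 3) in IMSP against 2.33 ± 1.59 RPKM (SD, n = 3) in SP cells. Over both sorts its log2 fold change was 1.60 (95% confidence interval 0.74 to 2.46, limma, adjusted p = 0.072), and the two-sided exact permutation p of 6 against 6 libraries was 0.013, unadjusted. Each pair of neighbouring libraries lies within a treatment and deviated together. All tests of imatinib over both sorts treat such libraries as independent, so their p-values and intervals may be too small. Hlf was also followed through the other settings. Hlf passed when libraries were scaled to the same RPKM sum (adjusted p = 0.049) and without DP replicate 3 (adjusted p = 0.029), and its adjusted p otherwise lay between 0.058 and 0.15 (limma).

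Gfi1b lay lower after imatinib, with a log2 fold change of -0.91 (95% confidence interval -1.79 to -0.03, limma, adjusted p = 0.26). All DP libraries stood above all IMDP libraries, whereas SP and IMSP cells overlapped through IMSP replicate 2. Without libraries 3 and 4, which are IMSP replicate 2 and IMDP replicate 2, the value was -1.42 and passed (limma, adjusted p = 0.026), and without IMSP replicate 2 alone it was -1.31 (limma, adjusted p = 0.044). Mecom (0.68), Prdm16 (0.58), Erg (0.39), Meis1 (0.35) and Lyl1 (0.16) had positive log2 fold changes and Tal1 (-0.32) and Gata2 (-0.09) negative ones, none past the threshold (limma, adjusted p from 0.25 to 0.90).

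Between IMDP and DP cells, 0.367% of all tested genes passed and none of the 9 (limma). The groups did not overlap for Hlf, Meis1 and Gfi1b, 3 of 9 genes, against 23.6% of all tested genes. The Hlf difference was 3.80-fold (log2 fold change 1.92, limma, adjusted p = 0.11). Between IMSP and SP cells, 0% of genes passed in limma and in limma-voom, with 845 genes at an unadjusted p under 0.05, and all 9 genes overlapped, against 13.8% of all tested genes that did not. All imatinib libraries carry library numbers 1 to 6 and all vehicle libraries 7 to 12, so treatment and library order cannot be told apart.

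For Tal1 and Lyl1 the sort held more of the variation than the pairs. For the other genes the pairs held more, as in the medians over all tested genes. The pair term has more degrees of freedom than the sort, so their shares are not directly comparable. Of the sum of squares of the log2 values, the pair within its treatment held 76.1% for Prdm16, 44.4% for Gfi1b, 43.5% for Mecom, 42.5% for Gata2 and 42.0% for Erg, against a median of 34.5% over all tested genes. It held 34.1% for Hlf, 33.8% for Lyl1 and 29.3% for Tal1, and 38.7% for Meis1, where the sort held 36.7%. The sort held 54.5% for Lyl1 and 41.7% for Tal1, against a median of 22.4%. Treatment held 51.4% for Hlf and 26.2% for Gfi1b, against a median of 7.27%. IMDP replicate 2 and IMSP replicate 2 each had the highest value of their group for 7 of the 9 genes (Mecom, Hlf, Meis1, Gata2, Gfi1b, Tal1 and Prdm16) and the lowest for Lyl1. SP replicate 2 had the lowest value of its group for 7 genes (Mecom, Meis1, Gata2, Gfi1b, Erg, Tal1 and Prdm16) and the highest for Lyl1. Without libraries 3 and 4, 6 of 9 genes passed in the average of the sorts (Mecom, Meis1, Gata2, Gfi1b and Tal1 higher, Lyl1 lower, limma), where 2081 of all 10072 genes did. With the pair as a block all 9 passed, and 4349 of all genes.

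**Figure D4:**
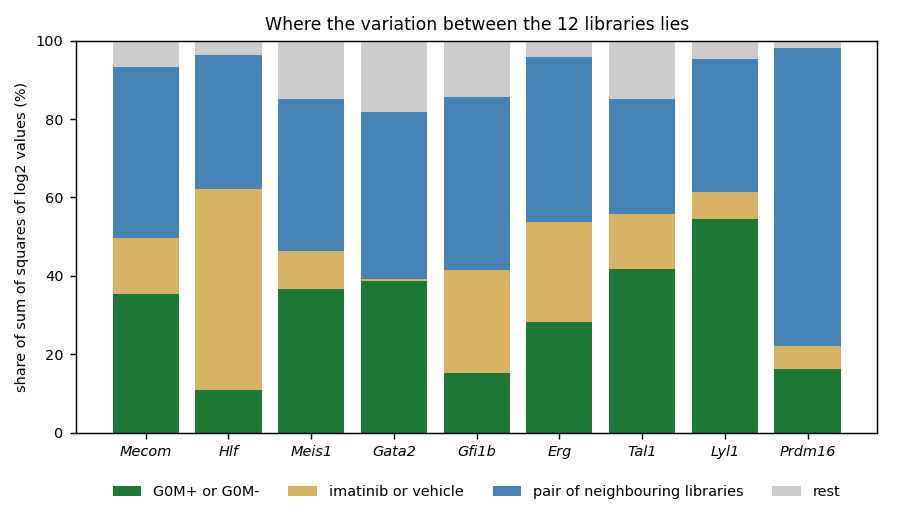
Share of the sum of squares of log2(RPKM + 0.1) over the 12 libraries, in percent, that lies with the G0M sort, the treatment, the pair of neighbouring libraries within its treatment, and the rest. Prdm16 has the tallest pair share (76.1%), Lyl1 the tallest sort share (54.5%) and Hlf the tallest treatment share (51.4%).

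Several of these factors are also active outside stem cells, so markers of other cell types are given beside them. The 10 mast cell and basophil markers summed to 76.3 to 329 RPKM in DP, 10.5 to 23.0 in SP, 14.9 to 194 in IMDP and 7.92 to 24.4 in IMSP libraries. Of the 7 tested, 4 were higher in G0M+ cells and none lower (limma), against 5.32% higher and 21.0% lower of all tested genes. Counts in the lists below stand against the same shares and come from the fit without the pair block unless stated. Prss34, a mast cell and basophil protease, lay between 9.99 and 34.1 RPKM in DP cells and at or below 0.139 RPKM in SP cells, with 0 to 35.5 RPKM in IMDP cells and 0 in all IMSP libraries. Cma1, mast cell chymase, lay between 5.46 and 28.5 RPKM in DP and between 0 and 25.6 RPKM in IMDP cells and was at 0 in all SP and IMSP libraries. Tpsab1 was listed at 0 in all libraries.

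The 9 megakaryocyte markers summed to 29.7 to 131 RPKM in DP, 12.7 to 43.8 in SP, 14.1 to 103 in IMDP and 8.17 to 48.8 in IMSP libraries. DP replicate 1, IMDP replicate 2 and IMSP replicate 2 had the highest sums. The last 2 were also the highest in Prdm16, whereas IMDP replicate 1, second in Mecom, had a sum of 14.1 RPKM. Ppbp, a platelet chemokine, was the 1 of 7 tested that passed as higher in G0M+ cells (limma, adjusted p = 0.012). Vwf, made by megakaryocytes and by platelet-biased stem cells, reached 24.1 RPKM in IMDP replicate 2 and 17.7 RPKM in IMSP replicate 2 and stayed at or below 6.96 RPKM in the other libraries. The 10 erythroid markers summed to 208 to 269 RPKM in DP, 55.3 to 148 in SP, 58.4 to 484 in IMDP and 10.7 to 72.9 in IMSP libraries, and 1 of 7 tested, the globin Hbb-bt, was higher in G0M+ cells (limma, adjusted p = 0.019). Klf1, the erythroid master factor, had a mean of 2.30 RPKM in DP and 0.264 RPKM in IMDP cells (imatinib against vehicle, log2 fold change -1.86, limma, adjusted p = 0.064), the same side as Gfi1b. For imatinib the median log2 fold change was -1.61 over the 7 tested erythroid and -0.69 over the 7 tested megakaryocyte markers, against -0.05 over all genes. In each of these lists 1 of 7 was higher and none passed (limma). Whether cells of these types contribute to the levels of Gata2, Tal1 and Gfi1b was not tested.

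Of 9 neutrophil granule genes, 5 were tested and 3 were lower in G0M+ cells (limma), against 21.0% of all tested genes. They were Mpo, the myeloperoxidase of granulocyte precursors, Prtn3 and Ctsg. The list summed to 70.7 to 1424 RPKM in DP, 388 to 2647 in SP, 75.9 to 292 in IMDP and 520 to 2226 in IMSP libraries, and its highest library, SP replicate 2, was the one with the lowest Mecom, Meis1 and Prdm16 of the SP group. Of 7 macrophage markers 4 were tested and C1qc, Vcam1 and Adgre1 were higher in G0M+ cells (limma), against 5.32% of all tested genes. The fourth, Csf1r, did not pass (log2 fold change -0.0002). The list summed to 4.04 to 12.9 RPKM in DP, 2.01 to 5.69 in SP, 12.9 to 16.4 in IMDP and 3.96 to 31.0 in IMSP libraries. The highest sum was that of IMSP replicate 3, a G0M- library with Csf1r at 28.7 RPKM. The endothelial list, checked because Erg, Tal1 and Gata2 are also endothelial factors, stayed between 0.264 and 3.17 RPKM in sum, with Sox17 at 0 in every library and Cdh5 at or below 0.0832 RPKM, and its 1 tested gene, Emcn, did not pass. Of 6 lymphoid markers, Ebf1 and Pax5 were at 0 in every library. The 1 tested, Dntt, an enzyme of lymphoid precursors, did not pass in the sort without the block and did with it (limma, adjusted p = 0.042). Dntt was higher after imatinib (log2 fold change 3.61, limma, adjusted p = 0.0497).

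**Figure D5:**
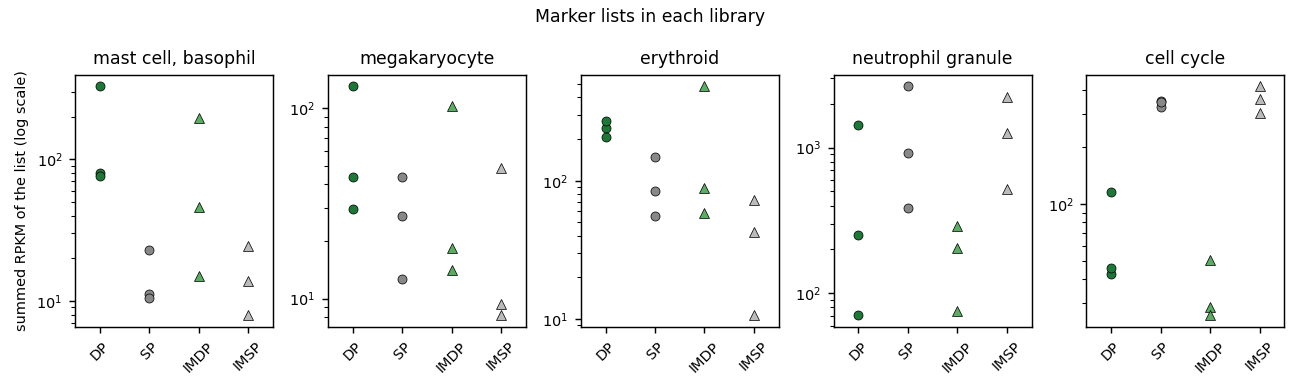
Summed RPKM of 5 marker lists in each of the 12 libraries, by group, on log axes. The mast cell and basophil sum is at or above 76.3 in DP and at or below 23.0 in SP libraries, and the cell cycle sum is at or above 304 in all G0M- and at or below 116 in all G0M+ libraries.

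Of 12 genes for partner proteins of these factors, all tested, 2 were higher and 1 lower in G0M+ cells (limma), with a median log2 fold change of 0.06 against -0.13 over all genes. Ldb1, the adaptor that joins Lmo2 to other factors, was higher (log2 fold change 0.31, adjusted p = 0.023), as was Cbfa2t3, the Eto2 corepressor of Tal1 complexes (0.54, adjusted p = 0.026). Cbfb, the partner of Runx1, was lower (-0.32, adjusted p = 0.049), and the E protein gene Tcf3 did not pass (-0.21, adjusted p = 0.15). Runx1 stayed between 14.0 and 22.3 RPKM in all libraries and Fli1 between 9.97 and 19.1 RPKM, and neither passed in G0M+ against G0M- cells. Fli1 lay below the G0M- neighbour in each of the 6 pairs. With the pair as a block it was lower in IMDP than in IMSP cells (limma, adjusted p = 0.030).

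Of 9 paralogs, 5 were tested and 1 passed: Tef, the PAR family relative of Hlf, was higher in G0M+ cells (log2 fold change 0.63, limma, adjusted p = 0.028). Gfi1, the relative of Gfi1b with a role in granulocytes, had the opposite sign (-0.995, adjusted p = 0.21) and lay below the G0M- neighbour in each pair. With the pair as a block Gfi1 passed as lower (limma, adjusted p = 0.0058). Gata1, the erythroid and megakaryocyte GATA factor (0.07, adjusted p = 0.92), and Gata3 (0.50, adjusted p = 0.34) did not pass. Meis2, Meis3, Tal2 and Dbp were below the filter.

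Among 5 cofactors of Meis1, all tested, 1 was lower in G0M+ cells: Pknox1 (Prep1), a relative of Meis1 that competes for Pbx, at -0.87 (limma, adjusted p = 0.00098) and lower in all 6 pairs. Pbx2, Pbx3 and Hoxa9 did not pass (-0.20, 0.41 and 0.10). Of 10 corepressors used by Gfi1b and Mecom, 2 were lower and none higher, near the 21.0% lower and 5.32% higher of all tested genes. These were the histone methyltransferases Suv39h1 (-0.88, limma, adjusted p = 0.00041) and Ehmt2 (-0.33, adjusted p = 0.032). Hdac1 (-0.31, adjusted p = 0.055) and Rcor1 (-0.31, adjusted p = 0.064) did not pass, but did with the pair as a block (limma, adjusted p = 0.011 and 0.024). The median of that list was -0.20, close to the -0.13 of all genes.

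Of 10 other stem cell transcription factors, 9 were tested and 3 were higher in G0M+ cells, against 5.32% of all tested genes: Mycn (log2 fold change 1.16, limma, adjusted p = 0.010), Nkx2-3 (1.69, adjusted p = 0.033) and Bcl11a (0.61, adjusted p = 0.036). Foxo3, a factor of quiescence, did not pass (0.40, adjusted p = 0.10), but was higher in all 6 pairs, as were these 3. With the pair as a block Foxo3 passed (limma, adjusted p = 0.0047). The median of the list was 0.52. Of 12 genes regarded as targets, 11 were tested and none passed (limma), with a median of 0.52: Sox4 (0.58, adjusted p = 0.051), Hdc (1.54, adjusted p = 0.052), Cpa3 (1.73, adjusted p = 0.088) and Hif1a (-0.32, adjusted p = 0.14) had the smallest adjusted p. With the pair as a block, 7 targets were higher and 1 lower, against 13.4% and 33.4% of all tested genes. Of 6 genes of the sort gate and the stem cell surface, Ly6a (1.42, adjusted p = 0.0054) and Procr, the endothelial protein C receptor EPCR (1.5, adjusted p = 0.033), were higher, while Kit (0.30, adjusted p = 0.21) and Cd27 (0.18, adjusted p = 0.33) did not pass. Kit passed with the pair as a block (limma, adjusted p = 0.039).

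Over the 12 libraries the 9 genes did not form 1 pattern. As a description without a test, over libraries that share pairs, Mecom and Meis1 ran together (Pearson r = 0.93), as did Gfi1b and Tal1 (0.90), Gata2 and Tal1 (0.89) and Mecom and Prdm16 (0.86). Hlf was near 0 with Tal1 (0.01) and Gfi1b (-0.11) but ran with Mecom (0.71), Erg (0.67) and Meis1 (0.58). Erg was also low with Gfi1b (0.16) and Tal1 (0.29). Lyl1 was negative with each of the other 8, from -0.82 with Gata2 to -0.21 with Hlf. After removal of the group means, Gata2 and Gfi1b (0.93) and Gfi1b and Tal1 (0.93) remained alike.

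Among all tested genes, those with the pattern most like a given factor over the 12 libraries (Pearson r of log2 values, no test) were Il27ra, a cytokine receptor subunit, for Mecom (0.97), Cpq for Hlf (0.97), Pear1 for Meis1 (0.98) and Aqp9 for Gata2 (0.95). They were Nol4l for Gfi1b (0.96), Il12rb1 for Erg (0.97), Kcnk5 for Tal1 (0.97), Tmem147 for Lyl1 (0.92) and Prex2 for Prdm16 (0.96). The next genes were Plcb4 and Stxbp4 for Mecom, Lst1 and Eml5 for Hlf, Zfp521, a stem cell zinc finger factor, and Akap13 for Meis1, and Nsun4 and Slc12a2 for Gata2. For the others they were Ssbp3, a cofactor of Ldb1, and Prkca for Gfi1b, Fam65b and Lrrn4 for Erg, Col4a2 and Fer for Tal1, Cask and Naa25 for Lyl1, and Sema4b and Arhgef12 for Prdm16. Their r lay between 0.917 and 0.975.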

How the data were processed

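RNA of 100 sorted cells per library was reverse transcribed with not-so-random primers, prepared with Nextera XT and sequenced. The authors mapped the reads to GRCm38/mm10 and deposited expression as RPKM. The methods name CLC Genomics Workbench, the reporting summary names HISAT2 and featureCounts, the submitters' processing notes name edgeR, and no source states strand-specific counting.

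Each file listed 48737 features, 17735 of them above 0 in some library. Reads were recovered from the steps of the RPKM values, and whole reads with a whole length (within 0.05 bases) were found for 99.9% of these. The depth was 11367631 to 20573779 reads per library, of which 25.9% to 37.1% lay on the features, and 1 read per kb equalled 0.0486 to 0.0880 RPKM. Numbered copies of a gene were summed (of Erg, the second copy was at 0). PCR copies could not be told apart.

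The filter kept 10072 genes, those reaching 1 RPKM in 3 or more libraries. These entered limma 3.58.1 (R 4.3.3) on log2(RPKM + 0.1), with 4 group means, an intensity trend and Benjamini-Hochberg adjustment over all genes at 0.05. A fold change on this scale understates the change of low genes. The fits were tested on simulated data. Single genes were tested by two-sided exact permutation over libraries (scipy 1.17.1), which cannot go below 0.1 for 3 against 3 libraries. Alternatives were a pseudocount of 1, no filter, 2-group fits, blocks, 2 scalings, limma-voom on recovered reads, unsummed copies and leaving out single libraries.

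For the pairing, correlations of deviations from the group means over genes were computed. Equal replicate numbers, from the sample titles, paired IMDP with IMSP (0.43, 0.65 and 0.46), so the blocked values are given beside those results. They did not pair DP with SP (-0.19, -0.30 and -0.10), whereas neighbouring library numbers, from the sample descriptions, did (0.51, 0.52 and 0.50). The library number block therefore used neighbouring numbers, a choice made from these values. Equal replicate numbers did not pair IMDP with DP (0.20, 0.09 and 0.10) or IMSP with SP (-0.23, -0.40 and -0.26). Some libraries of different treatments also deviated together, IMSP replicate 2 with SP replicate 3 (0.38) and IMSP replicate 1 with SP replicate 2 (0.37). Correlations not far below 0.43 thus also arose between libraries that were not taken as pairs.

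Named genes were the 9 members, up to 4 genes per list with the smallest adjusted p in G0M+ against G0M- and up to 2 more past the threshold elsewhere, sort checks, and the 3 genes most correlated with each member. Members named here, and lists, were chosen with earlier results of these data known. Runx1, Fli1, Vwf, Klf1, Tpsab1, Sox17, Cdh5, Ebf1, Pax5 and the untested paralogs were named after their values were seen. Gene positions came from GENCODE M21 (GRCm38), promoters from RefSeq (GRCm38.p6). The promoter table held windows for all 9 genes. Protein sequences were not used here.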

Additional observations from a re-analysis of the deposited data

How the results depend on the processing

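Under every alternative tried, 0 of the 9 genes passed between IMDP and DP, between IMSP and SP and in the interaction (limma). Other counts moved as follows, and the causes were not tested. The calls over all tested genes of the same fit stand in parentheses. In G0M+ against G0M- cells, 2 genes passed (2648), 1 without the filter (2321), 4 with limma-voom (2835), 5 after scaling to the same median (2379) or RPKM sum (2390), 9 with the library number block (4721), and 0 to 6 without single libraries. Between IMDP and IMSP, 1 passed (2581), 0 without the filter (2155) or with the replicate block over 4 groups (2781), 2 after median (1587) and 3 after RPKM sum scaling (1583), 7 with the library number block (4446), and 0 to 6 without single libraries. Between DP and SP, 0 passed (228), and 2 with the library number block (980). For imatinib against vehicle 0 passed (86), 1 after RPKM sum scaling (246), and 0 to 1 without single libraries. In G0M+ against G0M- cells none passed without DP replicate 2 (1741) or 3 (1583), IMDP replicate 2 (1838), IMSP replicate 1 (1607) or SP replicate 2 (1770). There, 1 passed without IMSP replicate 3 (2431) or SP replicate 1 (1989), 4 without DP replicate 1 (2871) and 6 without IMSP replicate 2 (2924). The 6 between IMDP and IMSP also came without IMSP replicate 2 (2545). With only the compared groups in the fit, the Tal1 difference between IMDP and IMSP had an adjusted p of 0.10 (limma). In that fit Hlf was the 1 gene of the 9 that passed (1553).

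The following 4 alternatives were chosen after seeing the data. The library number block gave 9, 8 and 3 of the 9 genes in G0M+ against G0M-, IMDP against IMSP and DP against SP. These counts were the same with median scaling (4575, 3945 and 1481 of all genes), without libraries 3 and 4 (4349, 3478 and 1235) and with limma-voom (4877, 4526 and 1382), but the genes differed. Between IMDP and IMSP, Lyl1 did not pass with median scaling, Prdm16 without libraries 3 and 4, and Gfi1b with limma-voom. Between DP and SP, Lyl1 and Mecom passed in each, beside Prdm16 with limma-voom and Erg in the others. Without libraries 3 and 4 and without a block, 6 genes passed in G0M+ against G0M- (2081 of all genes) and 1 for imatinib (Gfi1b).

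Signs turned only in values that did not pass. Hlf between DP and SP went to -0.22 and -0.05 without DP or SP replicate 3, in a range of -0.22 to 1.00 without single libraries. Gata2 for imatinib went to 0.036 with RPKM sum scaling and to 0.015, 0.10 and 0.0023 without IMDP, IMSP or SP replicate 3, in a range of -0.34 to 0.10. Prdm16 for imatinib went to -0.24 without libraries 3 and 4.

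Genes called over the whole table moved by over 1.5 times from 2648 to 4721 (block) in G0M+ against G0M-, and from 228 to 980 (block) between DP and SP. Between IMDP and IMSP they moved from 2581 to 4446 (block), 1553 (2-group fit), 1587 (median), 1583 (RPKM sum) and 1019 (without libraries 3 and 4). Between IMDP and DP they moved from 37 to 0 (2-group fit), 2 (median), 14 (RPKM sum) and 8 (limma-voom). For imatinib they moved from 86 to 46 (no filter), 162 (median), 246 (RPKM sum) and 369 (without libraries 3 and 4). Without single libraries they ranged from 1583 to 3061 in G0M+ against G0M-, 902 to 2962 between IMDP and IMSP, 125 to 264 between DP and SP, 0 to 189 between IMDP and DP, and 12 to 143 for imatinib. The lowest came without DP replicate 3, IMSP replicate 1, DP replicate 3, IMDP replicate 3 and DP replicate 2, respectively, and the 189 without IMDP replicate 1. The replicate block changed no other call of the 9 genes than that of Tal1 between IMDP and IMSP (adjusted p = 0.052). All 9 genes passed the filter, so no gene needed a test without it. Prdm16 and Gfi1b rest on as few as 8 and 17 reads in a library, which limits their precision.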
